A study of Sus scrofa with 23 samples.

Results

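The cytosolic ribosomal proteins are the proteins that, with the ribosomal RNAs, build the small and the large subunit of the ribosome outside the mitochondrion. They were followed here in pig oocytes and pre-implantation embryos. The 45 genes were every row of the deposited expression table whose gene symbol is RPL, RPS or RPLP with a number (with an optional letter for a variant) or RPSA, out of 8603 rows, of which 7371 carry a symbol. Kinases named after ribosomal protein S6 were not taken. Of the 45, 23 belong to the large subunit (RPL and RPLP) and 22 to the small one (RPS), 41 are standard proteins from a list of 76 written from general knowledge, and 4 are variant paralogs (RPL7L1, RPL10L, RPL26L1 and RPS27L). Within the table the choice used the name alone. By its name the table holds differentially expressed genes, so measured values can have decided which of these genes are in it.

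Standard ribosomal proteins are needed in fixed numbers per subunit, and their mRNAs are known among the most abundant messages of a growing cell. A mammalian oocyte stores ribosomes and messages, cleaves on them, and later switches on its own genome, at which point it starts to make new ribosomes. Messages of ribosomal proteins are known to start with a run of pyrimidines, which couples their translation to growth signals, and several ribosomal proteins have variant copies that arose by duplication or by reverse transcription of an mRNA and that are used in particular tissues.

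The study set cloned embryos beside in vivo embryos, to see how far the transcriptome of clones follows that of fertilized ones. Polyadenylated RNA was measured in 23 libraries, 1 per condition, so values stand without an error and differences between conditions were not tested. IV-D embryos came from Duroc sows inseminated with semen of a Duroc boar and were flushed from the sows. They hold 8 libraries, of MII oocytes (OC), 1-cell (1C), 2-cell (2C), 4-cell (4C) and 8-cell (8C) embryos, morulae (MO) and 2 parts of the blastocyst, called IT and TE. NT-D and NT-LW embryos are clones made by transfer of ear fibroblasts of 1 Duroc and 1 Laiwu boar, respectively, into oocytes matured in vitro and were cultured in PZM3 medium, with 7 libraries each from 1C to TE. The in vitro matured oocytes, from hybrid sows per the study although the label gives Duroc, form the NT-D OC library, against which the 1C stage of either clone group was read. Every library is a pool of oocytes or embryos, the clones are all male, and the in vivo embryos can be of both sexes. IT is inner cell mass together with trophectoderm. The trophectoderm keratin KRT8 had an FPKM of 626 in IV-D IT and 549 in IV-D TE, so that it was no lower in the part with inner cell mass. The trophectoderm markers were split. Of 8 in the table, 1 was higher in IV-D TE than in IV-D IT and 1 lower, by over 1 in log2(FPKM + 1), with a median difference of -0.15. The oocyte genes GDF9 and BMP15 had FPKM of 30.8 and 50.7 in IV-D OC and of 0.161 and 0 in IV-D TE.

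Gene starts are shown for 7 members, because the results turn on them: RPL7 and RPS4X rose most at the 8-cell stage in vivo, RPLP2 was among those that rose most at the 4-cell stage, RPL10 and its variant RPL10L parted between clones and in vivo embryos, and RPL26L1 and RPS28 kept courses of their own. Each line gives 15 bases before and 15 bases from the annotated RefSeq start in build Sscrofa11.1, on the sense strand, 5′ to 3′. Capitals mark a run of at least 5 pyrimidines that opens with C within 5 bases of the start.
RPL7, chr4:62602415-62602444, plus strand: cgcatgcgctaaCTTCCTCTTTCCCggctg
RPS4X, chrX:58155165-58155194, minus strand: ccgcggaccttCTTTTCTCCgcgcgccgga
RPLP2, chr2:507876-507905, plus strand: cccccgcgccggcgtCTTCCTTTCTgtccc
RPL10, chrX:124927234-124927263, plus strand: caggcgtgggagcgCCTCTTTTCCTTCggc
RPL26L1, chr16:51276678-51276707, minus strand: ggaagcctcaCTTCCggccctgagcagcgc
RPL10L, chr1:176604102-176604131, minus strand: cgatcagcggcccacaggagaataaacccc
RPS28, chr2:70954848-70954877, minus strand: ctctacgctaggactgctgggaacatggcg

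Such a run, searched as a C followed by at least 4 further bases that are C or T on the sense strand only, stood at 17 of the 45 gene starts (37.8%), and at 11 of the 35 members whose gene is not marked partial in the annotation (31.4%). The same run stood at 1320 of 6811 genes of the table with a position (19.4%) and at 3670 of all 19560 protein-coding genes (18.8%). The run of RPL7 spans 13 bases and that of RPL26L1 only 5. RPS13 and RPL27, which rose more than RPLP2 at 4C in vivo, are not among the starts shown. The start of RPS13 has a run of 5 bases and that of RPL27 has none. No run was found in the windows of RPL10L, whose gene model has 1 exon, and of RPS28. An annotated start is not a measured one, and the genes of RPL7, RPL10 and RPL26L1 are marked partial.

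All 45 genes matched a RefSeq position, 3 of them on the X chromosome (RPL10, RPL36A and RPS4X). The values are FPKM, fragments per kilobase of gene model and 1000000 fragments of the library, so they give the share of a gene in the RNA of a library, corrected for length, and not its amount per embryo. Fewer cells of a type and less RNA per cell cannot be told apart in them. Nor can the amount of a message and the part of it with a poly(A) tail, because only polyadenylated RNA was measured. The model lengths behind the table ran from 325 (RPS28) to 5881 bases (RPL3), with a median of 1498, and reads of near-identical copies of these genes elsewhere in the genome could have been assigned or lost, so levels between members are less certain than the course of 1 member. Depth was 14952784 to 22991067 fragments per library.

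The share of all fragments that fell on the 45 genes separated the libraries into a low and a high set at the 8-cell stage. In IV-D it was 0.316% in OC, 0.464% in 1C, 0.325% in 2C and 0.546% in 4C, then 3.79% in 8C, 4.48% in MO, 4.41% in IT and 5.71% in TE. NT-D libraries held 0.381% in OC, 0.433% in 1C, 0.427% in 2C and 0.505% in 4C, then 2.81% in 8C, 4.03% in MO, 5.38% in IT and 4.08% in TE. For NT-LW the shares were 0.354% in 1C, 0.294% in 2C, 0.684% in 4C, 3.24% in 8C, 3.76% in MO, 4.40% in IT and 3.14% in TE. The highest share up to 4C was thus below the lowest from 8C in all 3 groups. Counting error alone was small, with exact binomial 95% intervals of 0.314% to 0.319% for IV-D OC and 5.70% to 5.73% for IV-D TE, which say nothing of variation between embryos.

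**Figure D1:**
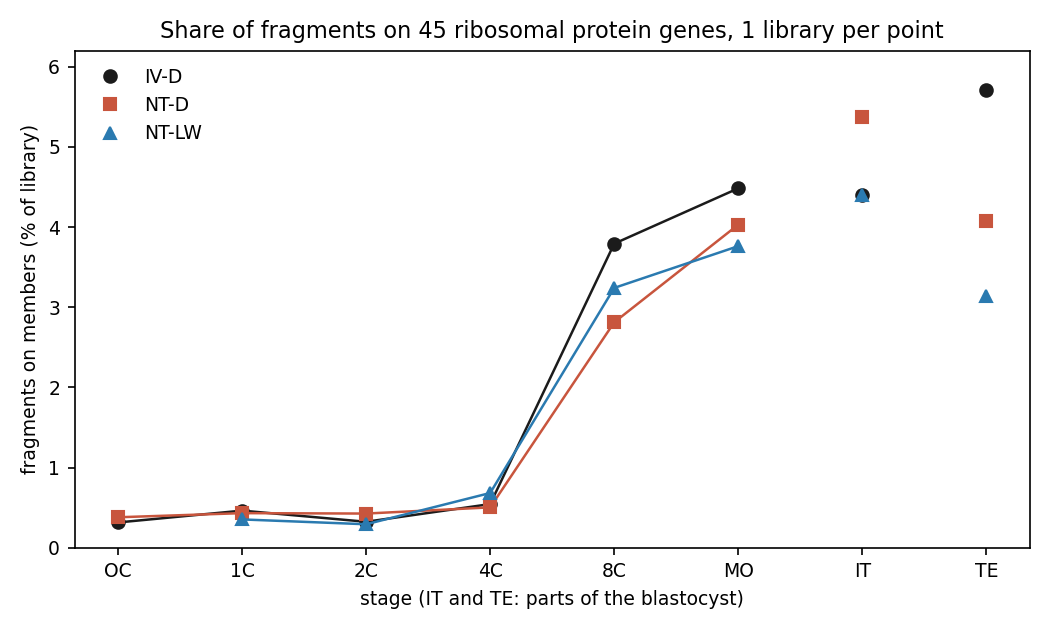
Share of the fragments of each library that fell on the 45 ribosomal protein genes (vertical axis, percent) by stage (horizontal axis), in IV-D (circles), NT-D (squares) and NT-LW (triangles), 1 library per point, with lines joining stages up to MO only. The 11 points up to 4C lie between 0.294% and 0.684% and the 12 points from 8C between 2.81% and 5.71%.

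Gene by gene, 38 of the 45 were higher in every library from 8C onward than in any library up to 4C, against 15.3% of the 8601 genes of the table that could be compared. The median member had an FPKM of 8.84 to 19.6 in the 8 libraries from OC to 2C, of 45.9 to 69.5 at 4C and of 309 to 713 from 8C. The 7 exceptions were RPL10L, RPL26L1, RPLP0, RPS3, RPS24, RPS27L and RPS28. Over the 23 libraries, Pearson's r of log2(FPKM + 1) of a member with the mean of the other members was over 0.9 for 38 members, and lowest for RPL10L (-0.10), RPL26L1 (0.00) and RPS24 (0.03). These correlations describe the contrast of early and late libraries, which share groups and stages.

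**Figure D2:**
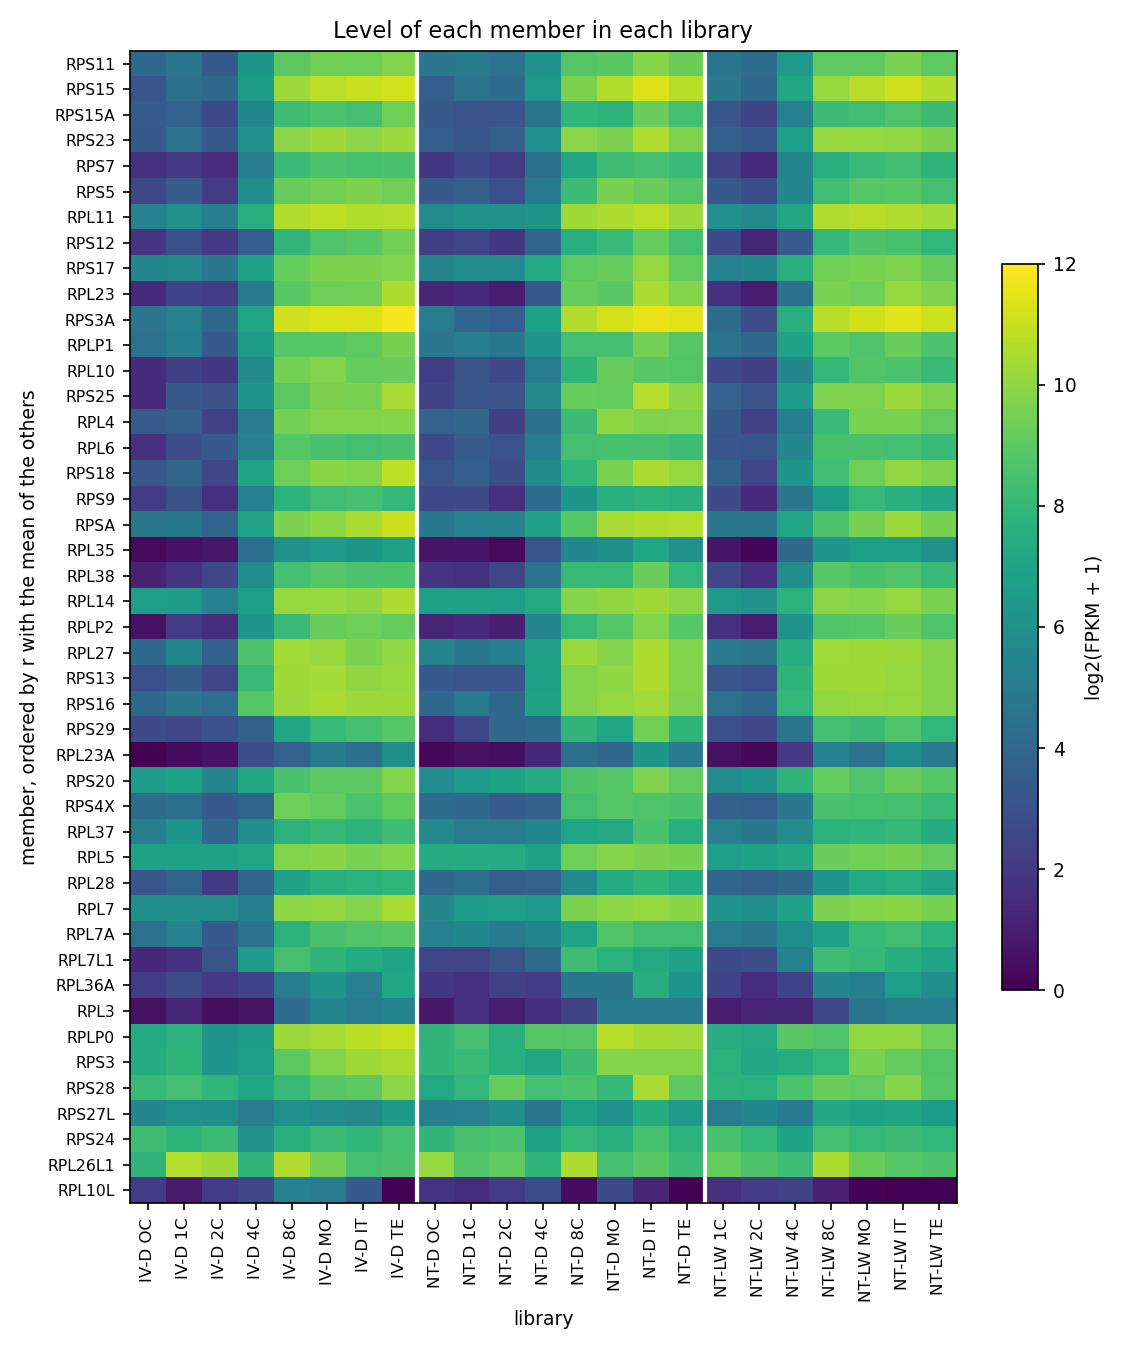
Level of each of the 45 members (rows, ordered by their correlation with the mean of the other members) in each of the 23 libraries (columns, by group and stage), as log2(FPKM + 1) on a colour scale from 0 to 12, 1 library per column. Most rows turn from dark to light between 4C and 8C, and the 7 rows at the bottom, from RPLP0 to RPL10L, are those whose levels up to 4C and from 8C overlap.

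The most abundant member from 8C on was RPS3A, a small subunit protein near the path of the mRNA. Its FPKM was 23.8, 37.3, 15.5 and 132 in IV-D from OC to 4C, and 2209, 2596, 2673 and 3637 in 8C, MO, IT and TE. RPS15, in the head of the small subunit close to the decoding site, went from 8.17 in OC over 93.2 in 4C to 1223 in 8C and 2318 in TE of the same group. RPL11, which forms a particle with 5S ribosomal RNA and RPL5 and can bind the p53 regulator MDM2, stood at 39.5 in OC, 186 in 4C and 1542 in 8C. Its partner RPL5 was less apart, with an FPKM of 118 to 135 in the 4 IV-D libraries up to 4C and of 758 to 921 in the 4 from 8C. These proteins thus shared the step and differed in the level they left. At the low end, RPL3, which reaches into the peptidyl transferase centre, had at most 42.2 (IV-D MO) and RPL23A, at the exit of the nascent chain, at most 81.6 (NT-D IT). Their long gene models, of 5881 and 2574 bases, lower these FPKM values where reads cover only a part of the model.

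In the libraries of the oocyte and the first cleavage embryos, the levels of these messages were uneven. Of the 45, 7 had an FPKM of at least 100 in both oocyte libraries (RPL5, RPL14, RPL26L1, RPLP0, RPS3, RPS24 and RPS28), and 19 were under 10 in both. These counts were not made for all genes of the table, so they have no background beside them. The 3 highest members made up 41.2% of the summed member FPKM in IV-D OC, 58.8% in 1C, 70.1% in 2C and 28.1% in 4C, but 19.7% to 21.3% in the 4 later IV-D libraries. In IV-D 2C, RPL26L1 alone held 49.5%. The rank order of the members in the 8 libraries from OC to 2C had a Spearman's rho of 0.374 to 0.463 with that in IV-D MO, in 4C of 0.692 to 0.742 and in the other 11 libraries from 8C of 0.802 to 0.974.

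In what follows a gene is said to rise or fall between 2 libraries when log2(FPKM + 1) differed by more than 1, with an FPKM of at least 1 in one of them. From OC to 1C in IV-D, 9 of 43 members tested rose (20.9%, against 13.7% of all genes tested) and 1 fell (7.64% of all genes fell), and the median difference of log2(FPKM + 1) was 0.64, against 0.13 over all genes. RPL26L1 and RPS25 rose most, by 2.84 and 1.95, and RPL10L fell by 1.21. From 1C to 2C, 2 rose (6.59% of all genes did) and 19 fell (44.2%, against 24.6%), with a median of -0.90 against -0.41. RPL37 and RPL7A, both of the large subunit, fell most, RPL37 from an FPKM of 79.3 to 15.4 and RPL7A by 1.91 on the log2 scale, while RPL7L1 and RPL10L rose by 1.38 and 1.25. How far the members fell there depended on the scaling between libraries, since with median-ratio scaling 5 members fell and 4 rose. Markers of other cells moved over the same libraries. Of 5 fibroblast markers, 4 rose from OC to 1C and 4 fell from 1C to 2C, with a summed FPKM of 5.03, 28.3 and 4.13 in OC, 1C and 2C. Of 8 oocyte genes, 1 rose and then 4 fell, with sums of 1858, 3247 and 1668. Their part in the course of the members was not tested.

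A first rise came between 2C and 4C and took in most but not all members. In IV-D, 32 of 44 members rose (72.7%, against 34.4% of all genes) and 2 fell (12.3% of all genes did), with a median of 2.39 against 0.46. RPS13, a small subunit protein, had an FPKM of 6.72, 10.7 and 4.77 in OC, 1C and 2C and of 277 in 4C, a 58.1-fold higher level than in 2C. RPL27 went from 12.3 to 395 (32.1-fold) and RPLP2, an acidic protein of the stalk that recruits elongation factors, from 2.0 to 75.4 (37.7-fold). All 3 were lower in every earlier IV-D library. The falls were those of RPL26L1, from 1267 to 231, and of RPS24, from 286 to 69.1. In the clones the same step gave 26 rises and 3 falls among 45 members in NT-D (17.3% and 8.36% of all genes) and 33 rises and 0 falls in NT-LW (16.5% and 19.9% of all genes), with medians of 1.46 and 2.23 against 0.20 and -0.18 over all genes. Of the members, 25 rose in all 3 groups, a count that was not made for all genes.

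The step from 4C to 8C was the broadest. In IV-D, 42 of 45 members rose (93.3%, against 35.0% of all genes) and 0 fell (28.1% of all genes did), with a median of 2.72 against 0.25. RPS4X, the X-linked small subunit protein S4, had an FPKM of 17.9, 19.6, 9.11 and 13.0 from OC to 4C and of 658 in 8C (50.7-fold over 4C). RPL7 of the large subunit went from 35.4 to 992 (28.0-fold). Neither had risen at 4C, so that the members did not all start at the same step. The 3 that did not pass the limit were RPS28, RPL23A and RPS27L, with differences of 0.90, 0.93 and 0.97. In NT-D, 41 rose and 1 fell (31.4% and 28.7% of all genes), with a median of 2.70 against 0.13, and in NT-LW 41 rose and 1 fell (28.1% and 25.6%), with a median of 2.44 against 0.05. In both clone groups the 1 that fell was RPL10L. Of the 45, 38 rose in all 3 groups, which again was not counted for all genes.

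**Figure D3:**
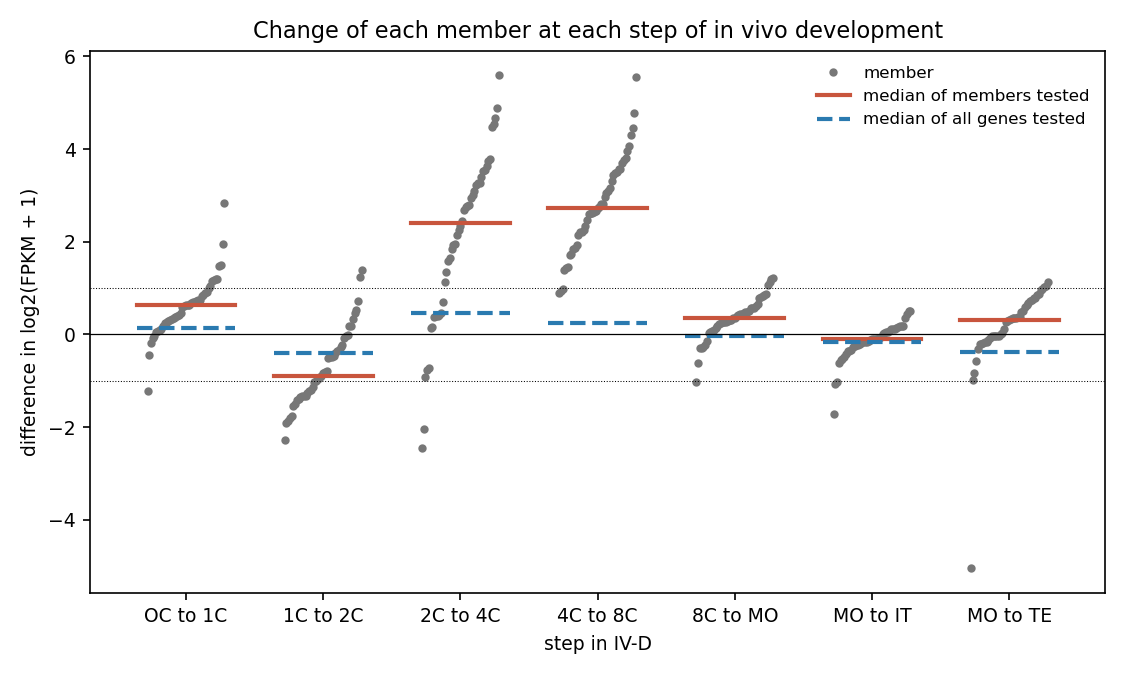
Difference of log2(FPKM + 1) of each member (grey points, sorted within a step) at each step of the IV-D group, with the median of the members tested (red bar) and of all genes tested (blue dashed bar). Dotted lines mark differences of 1 and -1. At 2C to 4C and 4C to 8C the member medians are 2.39 and 2.72, while at the other steps they lie between -0.90 and 0.64.

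Other gene lists were read against the same shares of all genes that rose, 34.4% from 2C to 4C and 35.0% from 4C to 8C. Of 58 mitochondrial ribosomal proteins, which build the separate ribosome of the mitochondrion, 20 of 56 tested rose from 2C to 4C in IV-D and 4 fell, near the share of all genes and with their median (0.46), and 48 of 58 rose from 4C to 8C with 0 falls (median 2.0). Among 30 proteasome subunits, 11 rose and 6 fell at the first of these steps, again near the share of all genes (median 0.65), and 20 rose with 0 falls at the second (median 1.55). RACK1, a protein of the small subunit outside the name rule, had an FPKM of 3.35 in 2C, 138 in 4C and 1549 in 8C of IV-D. For the 12 translation factors of the table, 9 of 11 tested rose at the first step and all 12 at the second. The difference between these lists and the members was not tested, with 1 library per condition.

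After 8C the members changed little in vivo. From 8C to MO, 4 of 45 rose (12.3% of all genes did) and 1 fell (13.6%), with a median of 0.36 against -0.03. RPL3 and RPL36A rose most, by 1.23 and 1.19, and RPL26L1 fell by 1.03. From MO to IT 0 rose (7.7% of all genes) and 3 fell (7.59%), and from MO to TE 3 rose (12.0%) and 1 fell (24.6%), with medians of -0.10 and 0.31 against -0.16 and -0.37 over all genes. RPL23 and RPSA rose most into TE, RPSA, also known as a laminin receptor precursor, from 998 in MO to 2073 in TE. Between the parts, 4 members were higher in TE than in IT by the rule (9.83% of all genes; 2 after rescaling to 1000000) and 1 lower (18.0%), with a median of 0.33 against -0.19. RPL36A led with 36.8 in IT and 137 in TE. The counts from MO to TE turned with the scaling, to 0 rises and 3 falls after rescaling to 1000000 and to 13 rises and 1 fall with median-ratio scaling. In the clones 0 members were higher in TE than in IT by the rule (0.385% of all genes in NT-D and 1.18% in NT-LW). By the same rule 7 of 45 were lower in NT-D (4.32%) and 1 of 44 in NT-LW (5.07%), where rescaling gave 2 and median-ratio scaling 0. The medians were -0.65 in NT-D and -0.48 in NT-LW, against -0.03 and -0.26 over all genes. All of these comparisons rest on 1 pool per part.

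RPL26L1, the variant of RPL26, kept a course of its own and was the most abundant member to do so. In IV-D its FPKM was 225 in OC, 1615 in 1C, 1267 in 2C, 231 in 4C, 1526 in 8C, 748 in MO, 354 in IT and 379 in TE. NT-D gave 1101, 427, 545, 233, 1492, 355, 491 and 291 in the same order, and NT-LW from 1C on 573, 399, 311, 1459, 632, 463 and 399. Its 8C level stood within 1459 to 1526 in the 3 groups, while OC was low in vivo and high after maturation in vitro, and 1C the reverse. The rise from OC to 1C in IV-D was 7.16-fold. Its fragment count was 2547 or more in every library. RPL26 itself was not analysed here, and reads of RPL26 copies could count toward RPL26L1.

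RPS24, which has several spliced forms, was high from the oocyte on. Its FPKM was 311, 228, 286 and 69.1 in IV-D from OC to 4C, and 190, 282, 242 and 357 from 8C to TE. The 3 lowest libraries of all were the 4C libraries, at 69.1, 111 and 122. RPS28, the shortest gene model, stood at 141 to 344 in the 4 IV-D libraries up to 4C and at 264, 478, 507 and 951 in 8C, MO, IT and TE, and its highest value was 1422 in NT-D IT. RPS27L, the variant of RPS27 and known as a p53 target, ranged from 32.0 to 64.6 in IV-D up to 4C and from 48.4 to 82.8 after it. It reached 172.7 in NT-D IT. For each of these 3 the range up to 4C overlapped that from 8C.

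RPL10L is a variant copy of the X-linked RPL10, known mainly from the testis, and lies on chromosome 1 (chr1:176603177-176604116). In IV-D its FPKM was 3.27, 0.840, 3.37 and 4.79 in OC, 1C, 2C and 4C, 39.5 in 8C, 32.1 in MO, 9.11 in IT and 0 in TE. NT-D had 2.64, 2.02, 3.25 and 6.29 up to 4C, then 0.321 in 8C, 5.66 in MO, 1.46 in IT and 0 in TE. NT-LW had 2.05, 3.37 and 4.05 from 1C to 4C, then 1.14 in 8C, 0.0879 in MO and 0 in IT and TE. The in vivo embryos thus held it at 8C and MO, while the clones hardly did at 8C. At MO the clone groups differed, with 69 fragments in NT-D and 1 in NT-LW, against 436 in IV-D. The counts behind the 8C values were 524 fragments in IV-D, 4 in NT-D and 12 in NT-LW, and RPL10L was 123-fold and 34.8-fold higher in IV-D. Where it was 0, in NT-LW IT, RPL10 had an FPKM of 392. Whether reads of RPL10 counted toward RPL10L was not tested.

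**Figure D4:**
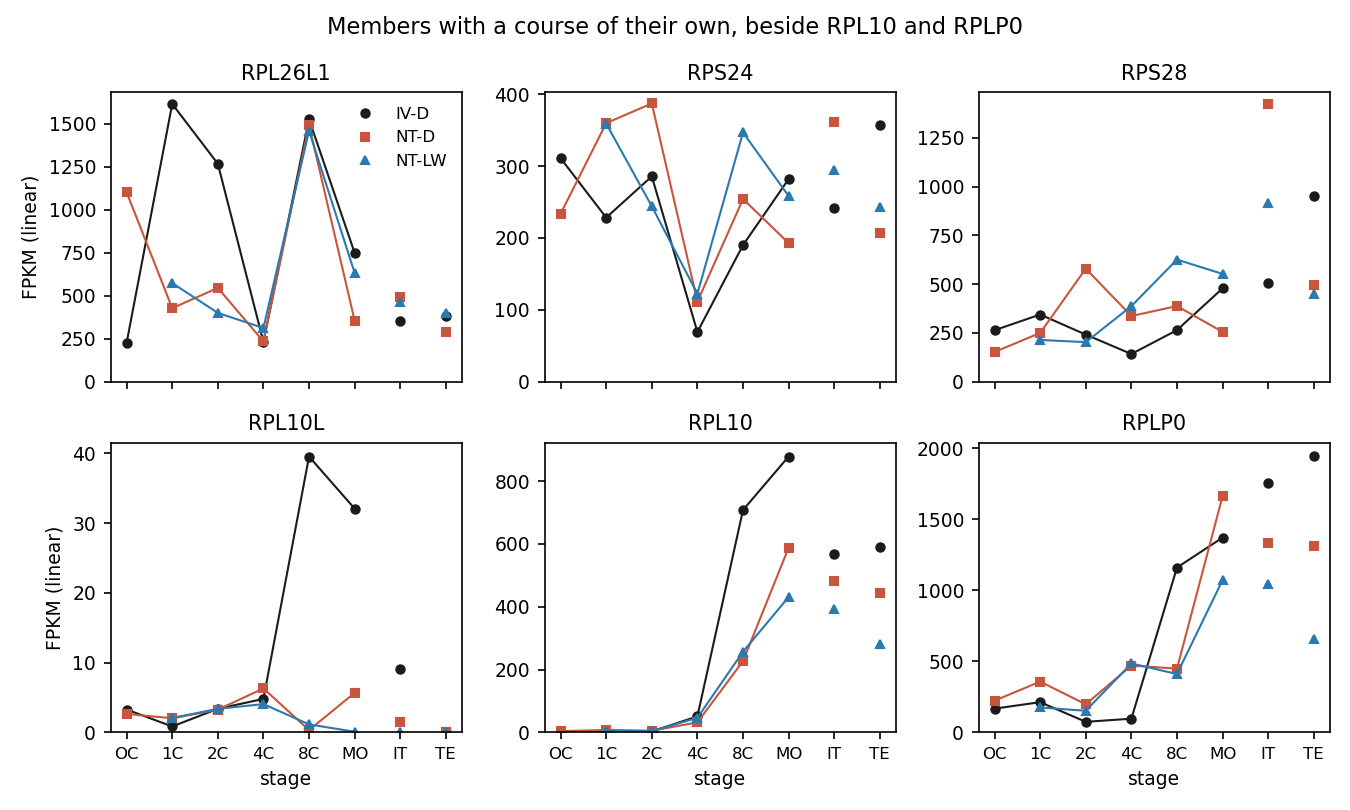
FPKM (linear vertical axes, each from 0) by stage of RPL26L1, RPS24, RPS28 and RPL10L, beside RPL10 and RPLP0, in IV-D (circles), NT-D (squares) and NT-LW (triangles), 1 library per point, with lines joining stages up to MO only. RPL10L is at 39.5 in IV-D 8C and at 0.321 and 1.14 in the clones, and RPLP0 is at 96.1 in IV-D 4C and at 470 and 485 in the clones.

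The clones were set beside the in vivo embryos stage by stage. Both clone groups were compared with the same IV-D library, so that a departure of that library enters both comparisons. Per the study, its replicates of NT-D and IV-D varied somewhat more at 4C than at other stages. Each 4C value here rests on 1 pool. In the oocyte, NT-D had 4 of 42 members higher (13.3% of all genes) and 1 lower (1.51%), which median-ratio scaling turned into 1 and 3. At 1C, 0 of 43 were higher in either group (18.5% of all genes in NT-D and 20.8% in NT-LW), and 5 were lower in NT-D (3.44%) and 4 in NT-LW (4.12%). Rescaling to 1000000 gave 3 higher and 5 lower in NT-D and 3 higher and 1 lower in NT-LW there, and median-ratio scaling 9 and 10 lower. At 2C, 13 of 42 were higher in NT-D (6.48%; 7 members with median-ratio scaling) and 2 lower (1.9%), with a median of 0.48 against 0.28 over all genes. In NT-LW 4 of 43 were higher (34.7%) and 3 lower (3.51%), with a median of 0.02 against 0.66, a split that became 12 and 2 after rescaling and 0 and 17 with median-ratio scaling. RPL26L1 was lower in both clone groups at both stages, with log2 differences of -1.92 (NT-D) and -1.49 (NT-LW) at 1C and of -1.22 and -1.66 at 2C. Oocyte genes were higher at 2C as well, 2 of 8 in NT-D and 7 of 8 in NT-LW, and fibroblast markers, 3 of 5 and 5 of 5, whose part in these counts was not tested. At 4C, NT-D had 3 members higher (9.74% of all genes) and 11 lower (13.2%) of 45, with a median difference of -0.21 against -0.02 over all genes, and NT-LW had 6 higher (10.8%) and 2 lower (9.43%), with a median of 0.11 against 0.03. Rescaling to 1000000 turned the NT-LW split into 4 and 4, and median-ratio scaling turned that of NT-D into 5 and 10. RPLP0, the core of the stalk on which RPLP1 and RPLP2 sit, had an FPKM of 96.1 in IV-D 4C, 470 in NT-D and 485 in NT-LW. It was 4.89-fold higher in NT-D and 5.05-fold in NT-LW. RPL7 was higher as well, with log2 differences of 1.26 in NT-D and 1.67 in NT-LW. RPL7L1, known from ribosome assembly in the nucleolus, went the other way, with 90.9 in IV-D, 17.9 in NT-D and 36.8 in NT-LW. It took 72.0% of the summed FPKM of RPL7 and RPL7L1 in IV-D 4C, 17.2% in NT-D and 24.3% in NT-LW. RPS16, at 463, 120 and 248 in IV-D, NT-D and NT-LW, and RPL27, at 395, 113 and 176, were lower in the clones as well, although RPS16 in NT-LW stayed within the limit.

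Transcripts that the oocyte leaves behind also differed between the clones and the in vivo embryos at 4C and 8C. Of 8 oocyte genes in the table, 5 were higher in NT-D 4C than in IV-D 4C and 0 lower, and in NT-LW 4C 5 were higher and 1 lower. Their summed FPKM was 498 in IV-D, 1612 in NT-D and 1530 in NT-LW at 4C, and 21.5, 195 and 243 at 8C. At 8C 7 of them passed the filter in either clone comparison, of which 5 were higher and 0 lower. Summed fibroblast markers (5 genes, COL1A2 the highest) were at 6.11, 28.2 and 28.4 in the same order at 4C and 1.07, 3.94 and 4.01 at 8C. The part of these transcripts in the differences of ribosomal protein genes was not tested.

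At 8C, 0 members were higher in NT-D (10.8% of all genes) and 9 lower (17.4%), with a median of -0.35 against -0.12. In NT-LW 4 were higher (16.3%) and 8 lower (17.3%), with a median of -0.06 against -0.02. Neither share of lower members lay far from that of all genes, and with each library rescaled to 1000000 the NT-LW split became 1 higher and 12 lower. Median-ratio scaling gave 1 higher and 7 lower in NT-D. After RPL10L, RPL3 and RPL10 were lowest in NT-D and RPLP0 and RPL3 in NT-LW. RPL10, which joins the large subunit last, had an FPKM of 50.8 in IV-D 4C and 708 in 8C, of 31.7 and 227 in NT-D, and of 46.3 and 257 in NT-LW. It was 3.12-fold and 2.76-fold higher in IV-D 8C. RPL3 stood at 17.5 in IV-D, 4.49 in NT-D and 5.64 in NT-LW. RPLP0 turned over between the stages, at 1160 in IV-D 8C and 448 and 410 in the clones after it had been higher in them at 4C. On the other side RPL23A was at 12.6, 20.7 and 36.8 and RPS28 at 264, 387 and 626 in IV-D, NT-D and NT-LW. Of the other X-linked members RPS4X had 658, 349 and 377, and RPL36A 32.7, 27.8 and 45.4. Sex and way of origin cannot be told apart for X-linked genes here, because the clones are male and the in vivo pools can hold both sexes.

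**Figure D5:**
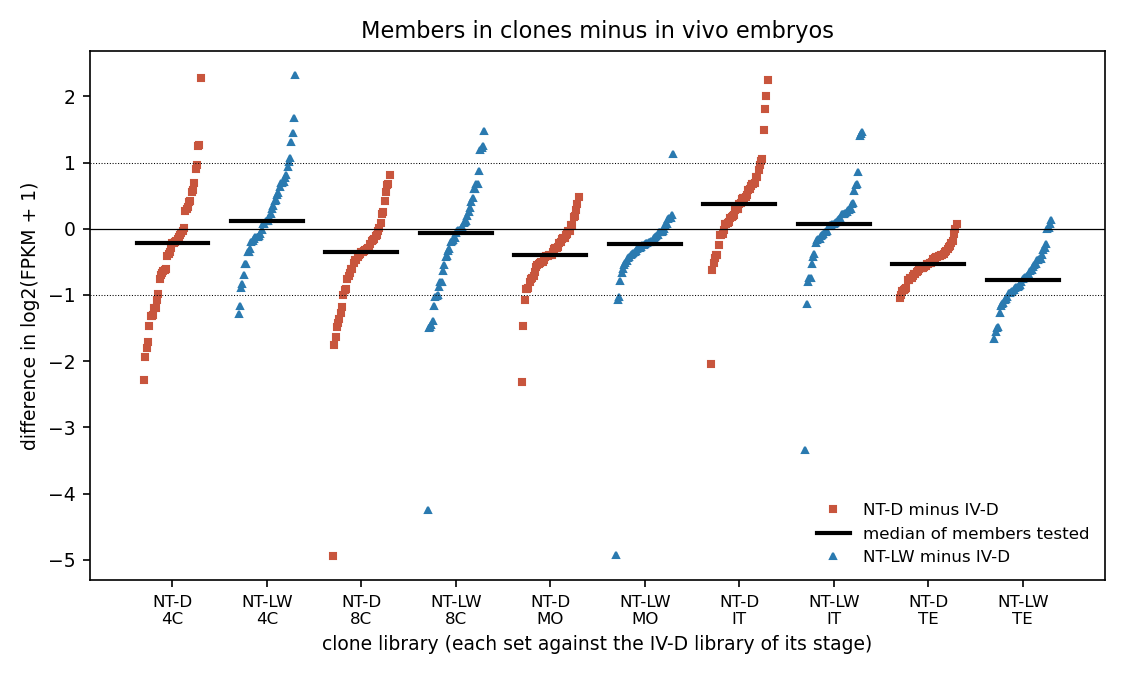
Difference of log2(FPKM + 1) of each member (points, sorted within a column) between a clone library and the IV-D library of its stage, for NT-D (squares) and NT-LW (triangles) from 4C to TE, with the median of the members tested (black bar). Dotted lines mark differences of 1 and -1. The lone low point at 8C and MO is RPL10L, and the TE medians are -0.53 and -0.78.

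At MO, 0 and 1 members were higher (18.7% and 11.6% of all genes) and 3 and 3 lower (3.88% and 4.07%) in NT-D and NT-LW, with medians of -0.39 and -0.23 against 0.22 and 0.21. With median-ratio scaling the counts were 0 higher and 9 lower in NT-D and 0 higher and 4 lower in NT-LW. Of the oocyte genes, 7 of 7 past the filter were higher in NT-D MO, with a sum of 190 against 8.33 in IV-D, and 3 of 6 in NT-LW, with a sum of 30.9. Of the fibroblast markers, 2 of 2 were higher in NT-D. Of 8 trophectoderm markers, 1 was higher in NT-D and 3 were lower in NT-LW, whose sum was 185 against 489 in IV-D. The part of these lists in the difference was not tested. RPL36A, near the exit site of the tRNA, was at 76.0 in IV-D MO, 26.8 in NT-D and 35.7 in NT-LW. In IT, 6 members were higher in NT-D (9.47% of all genes) and 1 lower (15.4%), and 3 higher in NT-LW (8.7%) and 2 lower (13.7%), with medians of 0.37 and 0.07 against -0.15 and -0.09. RPL36A now stood at 36.8 in IV-D, 178 in NT-D (4.83-fold) and 101 in NT-LW (2.75-fold). RPL23A, at 19.6, 81.6 and 55.8, and RPS27L, at 48.4, 173 and 129, were higher in both clone groups as well.

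In TE, the outer layer that contributes to the placenta, few members passed the limit in NT-D and more in NT-LW. In NT-D 0 of 44 were higher (3.13% of all genes) and 2 lower (4.23%), near the share of all genes and 0 with median-ratio scaling, with 43 of 44 below 0 and a median of -0.53 against -0.02. In NT-LW 0 were higher (6.26%) and 11 of 44 lower (10.2%), with 41 of 44 below 0 and a median of -0.78 against -0.16. The 11 became 17 after rescaling to 1000000 and 5 with median-ratio scaling. RPS3, at the mRNA entry, had an FPKM of 1399 in IV-D TE, 887 in NT-D and 442 in NT-LW. RPLP0 had 1945, 1310 and 659, and RPSA 2073, 1646 and 734. In NT-D only RPS29 and RPS12 passed the limit, RPS29 by 1.05 and RPS12 by barely more than 1 on the log2 scale. The exceptions above 0 were RPS27L in NT-D (0.07) and RPS27L (0.13), RPL26L1 (0.07) and RPL7L1 (0.02) in NT-LW. The share of all genes below 0 was not counted, so these counts of signs have only the medians over all genes beside them. The IV-D TE library holds the highest share of these genes of all 23, and its departure would enter both comparisons. Summed trophectoderm markers (8 genes) were at 1350 in IV-D TE, 1979 in NT-D and 2925 in NT-LW, whose part in the difference was not tested.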

How the data were processed

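Sequenced were pools of pig oocytes and embryos, 23 libraries with 1 per condition. Amplification of cDNA was by the SMART-Seq v4 kit. The authors aligned paired reads to Sscrofa11.1 with HISAT2 2.0.4, counted them with HTSeq 0.9.1 (strand setting not given in the sources used here) and deposited FPKM values of 8603 genes, by the name of the table the differentially expressed ones. Counts of genes therefore hold within that table. The study's replicates and donor cells were not analysed here, and 0 columns of the table were left unused.

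Symbols were taken from a table of Ensembl names and positions from RefSeq. From the spacing of the deposited FPKM values, whole fragment numbers were worked out for all 8603 genes, within 0.02 fragments of a whole number, which gave each model length and depth (14952784 to 22991067). Shares have exact binomial 95% intervals for counting error only. Groups came from the sample titles. Without replicates there is no test between conditions, and a fold rule was used (difference of log2(FPKM + 1) over 1, FPKM of at least 1 in one library), with all genes as background. Folds are ratios of FPKM. Fold limits and log2 differences with a pseudocount understate changes of low genes.

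The members, gene lists and comparisons were chosen with earlier results of these data known. Members named are the 5 highest and 3 lowest in mean FPKM, the paralogs with their partners, RPLP0, RPLP1, RPLP2, RPSA, RPL5, RPL11, RPS6 and RPS27A, the 2 largest rises and falls at each IV-D step and of each clone group against IV-D from 4C on, and the 3 with the lowest correlation. Of these, 32 are in the table and RPS6 and RPS27A are not analysed here. Names of whole classes (RPL14, for one) lie outside this rule and were chosen after their values were seen. Of other lists, the 2 genes highest in mean FPKM are named, and KRT8, GDF9, BMP15 and RACK1 as checks.

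The alternatives tried were scaling by median ratios, rescaling of each library to 1000000, the pseudocount 0.1, another minimum FPKM (5, or none), the fold rule joined by an exact binomial test of the fragments of both libraries (Benjamini-Hochberg adjusted p under 0.005, which compares libraries and not conditions), standard proteins only, and, for shares, another denominator and leaving out the top member. The recovery of fragments and the fold rule were tested on simulated data of the IV-D 4C and 8C libraries (8603 genes, 200 of them changed 8-fold). All fragments were recovered for 100% of genes, and the fold rule called 100% of changed and 0% of unchanged genes. The simulation held counting error only, and its changes were set in genes with an FPKM of at least 1 in 4C. Variation between embryos, pools or amplifications was not simulated, so 0% is not the rate of false calls in these data. The binomial test was not tested in this way. Tools were samtools 1.23.1, pysam 0.24.0, scipy 1.17.1, pandas 2.3.3, numpy 2.4.6 and matplotlib 3.10.9 under Python 3.11.15.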

Additional observations from a re-analysis of the deposited data

Results flagged for a closer look

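RPL26L1, RPL10L and RPL36A moved in opposite directions between the clones and the in vivo embryos over the same step, with 1 library per condition, and in each case the difference was not tested. RPL26L1 went from OC to 1C by 2.84 on the log2(FPKM + 1) scale in IV-D, by -1.36 in NT-D and by -0.94 in NT-LW, and both clone groups were set against the same oocyte library. RPL10L went from 4C to 8C by 2.81 in IV-D, by -2.46 in NT-D and by -1.24 in NT-LW. RPL36A went from MO to IT by -1.03 in IV-D, by 2.69 in NT-D and by 1.48 in NT-LW.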

How the results depend on the processing

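No paired analysis was possible because each condition has 1 library, and for the same reason no library could be left out. Median-ratio scaling shifted all genes by -0.94 to 0.57 on the log2 scale in these comparisons, and rescaling to 1000000 by -0.30 to 0.30. Of the medians of 29 comparisons, 6 of at most 0.23 in size changed sign with a scaling, among them NT-LW 2C against IV-D (0.02, and -0.80 with median-ratio scaling), and the others kept their direction under the scalings, pseudocount, filters and member set tried. The cause was not tested. The median from IV-D 1C to 2C passed -1 with rescaling (-1.04), a pseudocount of 0.1 (-1.01) and a minimum FPKM of 5 (-1.02). Adding the binomial test, which can only remove calls, moved no count by over 1.5 times. Dropping the filter could not change a count. A gene under an FPKM of 1 in both libraries cannot differ by over 1 in log2(FPKM + 1). The counts of members that moved further were these. Median-ratio scaling gave 4 higher and 5 lower for IV-D 1C to 2C, 5 lower for 2C to 4C, 1 lower for MO to IT and 13 higher for MO to TE. For clones against IV-D it gave 5 higher in NT-D 4C, 1 higher in NT-D 8C, 9 lower in NT-D MO, 0 higher in NT-LW MO, 0 lower in NT-D TE and 5 lower in NT-LW TE, and before 4C 1 higher and 3 lower in NT-D OC, 9 lower in NT-D 1C, 10 lower in NT-LW 1C, 7 higher in NT-D 2C, and 0 higher and 17 lower in NT-LW 2C. For NT-LW IT to TE it gave 0 lower. Rescaling to 1000000 gave 0 higher and 3 lower for IV-D MO to TE, 2 higher for IT to TE, 1 lower for NT-LW 2C to 4C, 4 lower in NT-LW 4C, 1 higher in NT-LW 8C, 1 lower in NT-D TE and 17 lower in NT-LW TE, 3 higher in NT-D 1C, 3 higher and 1 lower in NT-LW 1C, 12 higher in NT-LW 2C and 2 lower for NT-LW IT to TE. With a minimum FPKM of 5, counts were 0 lower for IV-D OC to 1C, 1 higher for 1C to 2C 0 lower for NT-LW 4C to 8C, 2 higher in NT-D OC and 1 lower in NT-D 2C, and a pseudocount of 0.1 gave 15 higher for IV-D OC to 1C, 7 higher in NT-D OC, 2 higher in NT-D 1C, 2 higher in NT-LW 1C and 6 lower in NT-LW 2C. Without the 4 paralogs, lower members fell to 0 for IV-D OC to 1C, 8C to MO, MO to TE, IT to TE, NT-D and NT-LW 4C to 8C and NT-D IT, and to 1 for IV-D 2C to 4C and MO to IT, NT-D 2C to 4C, NT-LW 4C, NT-D MO, NT-LW IT and NT-D 2C, and higher members to 0 for IV-D 1C to 2C and NT-LW MO and to 2 in NT-D OC, fewer members being counted. The share of fragments up to 4C was 0.287% to 0.644% without the top member and 0.346% to 0.806% of the fragments on table genes, and from 8C 2.68% to 5.13% and 2.97% to 5.90%. Depth limits RPL10L, with 0 to 12 fragments in the NT-LW libraries from 8C on, 4 in NT-D 8C, 9 in IV-D 1C and 0 in IV-D TE and NT-D TE. Its differences from OC to 1C and from 1C to 2C in IV-D both rest on the 9 fragments in 1C. Depth also limits the earliest levels of RPL23A and RPL35, with as few as 3 and 9 fragments.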

Other observations

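Many genes of ribosome biogenesis, which make ribosomes without being part of them, rose at the same 2 steps in IV-D. Of 43 genes of ribosome biogenesis in the table, 22 of 36 tested rose from 2C to 4C (34.4% of all genes) and 1 fell (12.3%), and 28 of 43 rose (35.0%) and 4 fell (28.1%) from 4C to 8C. From 8C to MO 0 of 42 rose (12.3% of all genes) and 5 fell (13.6%). From MO to IT 1 rose (7.7% of all genes) and 3 fell (7.59%). From MO to TE, which rests on 1 TE library, 27 of 42 fell (24.6% of all genes) and 1 rose (12.0%), with a median difference of log2(FPKM + 1) of -1.25, beside 0.31 for the ribosomal proteins and -0.37 over all genes. NOP58, a core protein of the particles that guide methylation of ribosomal RNA, had an FPKM of 28.2 in 2C, 265 in 4C, 311 in 8C, 254 in MO and 101 in TE. NPM1, the abundant nucleolar protein, did not share this course and stood at 467 to 777 in all 8 IV-D libraries. For RNA polymerase I and III subunits and their factors, which transcribe ribosomal RNA, 8 of 16 rose from 2C to 4C (34.4% of all genes). At that step 1 of the list fell (12.3% of all genes). POLR1D, shared by both polymerases, went from 154 to 556. From 4C to 8C, 5 of these 16 rose (35.0% of all genes) and 1 fell (28.1%), and POLR1D stood at 321 in 8C.

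Of 12 translation factors at 8C, 7 were lower in NT-D (17.4% of all genes) and 5 in NT-LW (17.3%) against the same IV-D library, and 0 were higher in either (10.8% and 16.3%), with medians of -1.12 and -0.74, beside -0.35 and -0.06 for the ribosomal proteins and -0.12 and -0.02 over all genes. TPT1, whose mRNA also starts with a pyrimidine run in other mammals, had an FPKM of 1561 in IV-D, 694 in NT-D and 1138 in NT-LW. EIF4A2, an initiation helicase, had 469, 466 and 446. None of these differences was tested, and the lists were written with earlier results of these data known.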
